A study of Homo sapiens with 8 samples.

Results

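The regions described here carried a peak of captured methylated DNA in every one of 8 neuroblastoma (NB) cell lines. They were chosen by the peak calls themselves. All autosomal peaks of the 8 lists were pooled, overlapping or touching peaks were merged, and a merged region was kept where each line had at least 1 peak in it. This left 2355 of 362998 merged regions (0.649%), which covered 4.03 Mb, or 0.14% of the autosomes. The study profiled 4 lines with *MYCN* amplification (MNA), IMR-32, N206, CHP-902R and LAN-2, and 4 *MYCN* single copy lines, CLB-GA, SJNB-1, SH-SY5Y and SK-N-AS. All are established tumor cell lines. Each was grown in culture and represented by 1 sample of fragmented genomic DNA, enriched for methylated fragments by the MBD2 protein's methyl-CpG-binding domain (MBD) and sequenced (MBD-seq). No normal cell or unmethylated control was among the samples, so a region shared by the NB lines is not thereby particular to NB. The lists hold peaks and their scores rather than reads, and give no depth for each line. The autosomal lists ranged from 70110 peaks in SJNB-1 to 109880 in LAN-2.

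DNA methylation in human cells sits almost entirely on the cytosine of CpG dinucleotides, and CpG is rare in most of the genome because methylated cytosine mutates readily to thymine. CpG islands at the promoters of active genes usually stay unmethylated, while the bodies of genes, repeats, retrocopied pseudogenes and the promoters of germline genes are typically methylated in somatic cells. MBD2 binds DNA more tightly the more methylated CpGs a fragment carries, so the assay reads CpG density and methylation together. A peak therefore marks captured DNA, and the absence of a peak does not show that DNA was unmethylated.

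The sequences below show kinds of DNA that all 8 lines captured. They come from leading regions of each annotation class and a repeated gene copy, and from the stretch near *RTP5*, which was chosen for its wide common peak and not for its strength. Each is the 200 bases in the middle of the stretch covered by a peak in all 8 lines, from the plus strand of GRCh37, with CpG in capitals.
MYORG, protein-coding promoter window, chr9:34372177-34372376: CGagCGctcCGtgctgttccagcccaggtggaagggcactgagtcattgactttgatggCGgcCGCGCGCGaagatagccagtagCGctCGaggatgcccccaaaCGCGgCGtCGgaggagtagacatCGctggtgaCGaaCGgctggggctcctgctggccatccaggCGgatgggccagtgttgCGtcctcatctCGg
ZNF672, coding exon, chr1:249142163-249142362: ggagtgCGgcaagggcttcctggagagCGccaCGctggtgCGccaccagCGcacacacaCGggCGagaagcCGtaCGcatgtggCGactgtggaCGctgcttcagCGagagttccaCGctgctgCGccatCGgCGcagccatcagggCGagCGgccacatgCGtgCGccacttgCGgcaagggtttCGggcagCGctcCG
PLEKHA8, intron, chr7:30155377-30155576: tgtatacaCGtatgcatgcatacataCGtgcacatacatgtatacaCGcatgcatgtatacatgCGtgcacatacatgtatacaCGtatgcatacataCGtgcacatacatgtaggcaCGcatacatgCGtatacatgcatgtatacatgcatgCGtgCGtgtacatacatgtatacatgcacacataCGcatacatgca
Intergenic, chr17:72510580-72510779: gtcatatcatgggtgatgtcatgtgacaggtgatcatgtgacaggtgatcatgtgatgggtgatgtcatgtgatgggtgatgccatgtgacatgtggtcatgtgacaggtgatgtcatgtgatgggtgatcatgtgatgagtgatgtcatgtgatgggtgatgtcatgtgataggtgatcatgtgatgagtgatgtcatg
Intergenic, chr17:54821102-54821301: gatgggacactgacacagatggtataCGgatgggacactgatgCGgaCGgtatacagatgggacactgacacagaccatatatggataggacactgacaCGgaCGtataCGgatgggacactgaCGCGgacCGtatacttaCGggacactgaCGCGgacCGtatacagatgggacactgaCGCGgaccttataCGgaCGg
Intergenic near RTP5, chr2:242807294-242807493: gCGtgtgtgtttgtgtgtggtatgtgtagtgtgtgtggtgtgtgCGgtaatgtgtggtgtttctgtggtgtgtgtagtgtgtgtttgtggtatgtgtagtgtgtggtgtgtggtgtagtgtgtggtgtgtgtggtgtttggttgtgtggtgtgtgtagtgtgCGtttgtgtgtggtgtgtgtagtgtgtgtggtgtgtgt
DUX4L9, repeated gene copy, chr4:190943244-190943443: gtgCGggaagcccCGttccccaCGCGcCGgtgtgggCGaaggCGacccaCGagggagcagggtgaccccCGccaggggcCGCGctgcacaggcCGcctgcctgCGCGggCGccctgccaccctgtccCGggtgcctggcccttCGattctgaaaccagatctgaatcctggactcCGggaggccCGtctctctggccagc
The *MYORG* stretch held 20 CpG and that of *ZNF672* 24. The same length held 27 CpG at *KCNV2* and 8 at *LRRN2*, which stood next in these classes, so their leading regions varied widely. The intron of *PLEKHA8* held 11 CpG within sequence rich in TG and CA. The first intergenic stretch on chromosome 17 held 0 CpG and 68 TpG or CpA dinucleotides, and the stretch near *RTP5* held 3 CpG and 70 TpG or CpA. Deamination of methylated CpG leaves such pairs, but both stretches are repetitive, and how their pairs arose was not tested.

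Not every shared region had its peaks on the same bases. A base covered in all 8 lines existed in 1879 of the 2355 regions (79.8%), and there the common stretch had a median of 413 bp, with quartiles of 273 and 594 bp. In 352 regions the most lines on any one base was 7, and in 124 it was under 7. The regions were 383 to 11943 bp wide with a median of 1566 bp, and 1459 of them (62%) had exactly 1 peak in each line. They took up between 2.35% of the autosomal peaks of LAN-2 (95% Wilson interval 2.26 to 2.44) and 3.63% of those of SJNB-1 (3.5 to 3.77). These intervals cover counting error only. Just outside the rule lay 4000 regions with a peak in exactly 7 lines, with a median width of 1258 bp. The missing line was most often SK-N-AS (650 regions) or CLB-GA (625) and least often SH-SY5Y (358).

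A line's own peaks were then set against regions merged from the other 7 lines alone, so that the line's list had no part in choosing the regions. Where all 7 other lines had a peak, the named line had one in 78.2% of regions in SK-N-AS, 79% in CLB-GA, 80.7% in SJNB-1, 82% in IMR-32, 83.1% in LAN-2, 85% in CHP-902R, 85.2% in N206 and 86.7% in SH-SY5Y. Where only 1 other line had a peak, the share was 7.6 to 13.8%. The means were 82.5% ± 3.07 and 10.4% ± 1.88 (SD, n = 8 lines). The difference of 72.1 percentage points ± 2.88 is given as a description, since a region of 7 other lines that the named line also holds is a region of all 8 lines whichever line is named, and since regions of 7 lines are wider (median 1449 to 1508 bp) than those of 1 line (408 to 421 bp). Asking instead, in an alternative added after seeing the data, for a peak over the centre base of the stretch covered by most of the other lines gave means of 75.4% ± 4.29 and 9.5% ± 1.83. The mean share was higher at each further line, with values of 19.7%, 29.2%, 40.9%, 54.9% and 67.9% at 2 to 6 other lines. With a peak in all 7 other lines, the named line held 2329 to 2345 regions whichever it was. Its share there thus mainly tells how many such regions it lacks. The lines share these regions, so their values are not fully independent, which limits the p-values that follow. At 7 other lines the MNA lines averaged 83.8% ± 1.51 and the *MYCN* single copy lines 81.1% ± 3.86 (SD, n = 4 each). That difference of 2.7 points was within the spread of the lines (two-sided exact permutation test, p = 0.257, where the smallest possible p is 0.0286). With each line left out in turn, it was largest without SH-SY5Y, at 4.56 points (exact permutation p = 0.0286). That is the smallest p such a test can give. The difference changed sign to -0.707 with equally long peak lists (exact permutation p = 0.829). The shares rest on the peak calls that chose the regions, so these p-values support no conclusion about *MYCN* status.

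**Figure D1:**
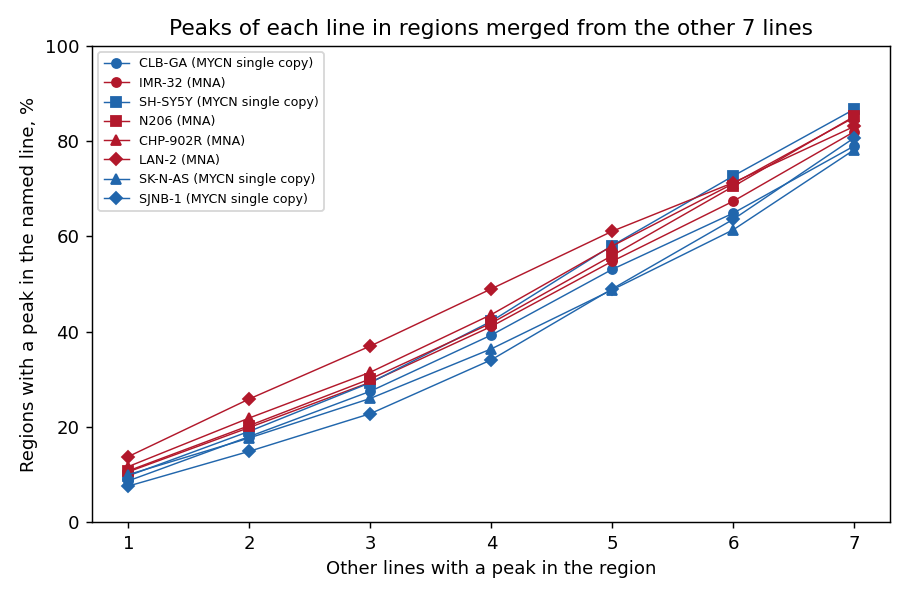
Share of regions with a peak in the named line (y axis, %) against how many of the other 7 lines had a peak there (x axis), with the regions merged from those other lines only. Each marked line is 1 cell line, red for MNA and blue for *MYCN* single copy. All 8 climb from 7.6 to 13.8% at 1 other line to 78.2 to 86.7% at 7.

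Where the regions lay and their sequence were not used to choose them. Each region was placed by the base at the centre of the most widely covered stretch. A base in a protein-coding promoter window was counted there, coding or not. Coding exons outside such windows held 391 (16.6%), against 11.2% of regions of exactly 7 lines and 3.34% of all merged regions. Protein-coding promoter windows, from 1500 bp before to 1000 bp after a transcription start site (TSS), held 375 (15.9%), against 8.32%, a share that regions of exactly 7 lines also had (16%). Other exons, mostly of noncoding RNAs and pseudogenes, held 240 (10.2%), against 8.18% at 7 lines and 4.28% over all. Introns held 773 (32.8%), against 38.4% at 7 lines and 55.3% over all, and 576 (24.5%) were outside genes, against 26.4% at 7 lines and 28.8% over all. Since shared regions were wider, overlap of the whole region with a TSS window of any gene was larger, at 38.3% against 15.9%, while by the centre base alone it was 29.5% against 13.4%.

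The CpG content rose with the number of lines. In the 500 bp around the centre, the median was 4.6 CpG per 100 bp in shared regions, with quartiles of 3 and 6.6. It was 4 in regions of exactly 7 lines, 2 in regions of 1 line and 2.2 over all merged regions, beside 0.997 for the autosomes as a whole. The median GC content was 60% in shared regions, 57.6% at 7 lines and 48.6% over all. The 45 bp windows, the length of the study's reads, were over 95% unique in the genome for 70.5% of shared regions. That share was 64% at 7 lines and 42.3% over all merged regions. Within 5 Mb of a chromosome end lay 321 shared regions (13.6%), against 12.4% at 7 lines and 9.16% of all.

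**Figure D2:**
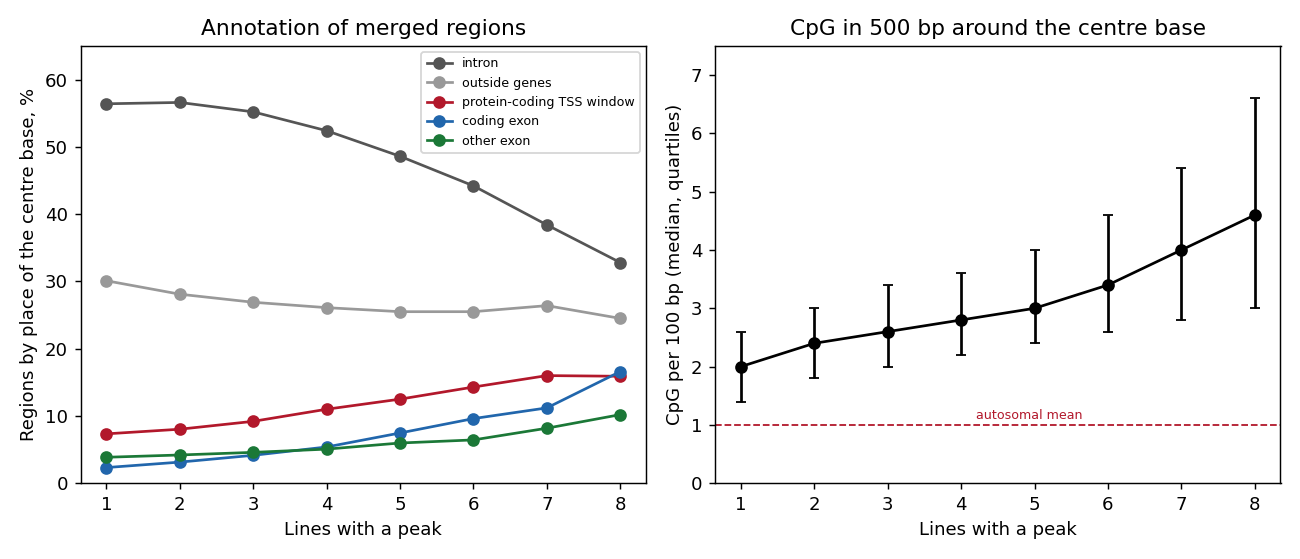
Left, share of merged regions (y axis, %) by the annotation of the centre base, against the number of lines with a peak (x axis). Right, CpG per 100 bp in the 500 bp around the centre base, as median with quartile bars, against the number of lines, with the autosomal mean of 0.997 as a dashed line. Coding exons outside promoter windows climb from 2.33 to 16.6% and the median CpG from 2 to 4.6, while introns drop from 56.4 to 32.8%.

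The coding exons among shared regions were long ones. The centre base was coding in 568 regions (24.1%), inside promoter windows or outside, against 17.3% of regions of exactly 7 lines. The uninterrupted coding stretch around it had a median of 994 bp. That median was 658 bp at 7 lines, 216 bp over all merged regions with a coding centre and 121 bp over all annotated coding stretches. Stretches of 1000 bp or more made up 49.8% of the coding hits of shared regions, against 29.5% at 7 lines and 11.2% over all merged regions. The regions named as leading a class, here and below, had the highest mean score ranks among regions with over 95% unique windows. The score is the one the peak caller wrote, and a smaller p-value gives a larger score. The rank is the share of a line's peaks that have a lower score, so that lists of unequal length can be set side by side.

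*ZNF672*, a zinc finger gene whose fingers lie in 1 long exon, led this class (chr1:249141020-249143245). Its scores were 302, 217, 319 and 327 in IMR-32, N206, CHP-902R and LAN-2, and 197 in CLB-GA, 225 in SH-SY5Y, 305 in SK-N-AS and 325 in SJNB-1. Every line ranked it at 99.5% or higher and the *MYCN* groups overlapped. *LRRN2*, a neuronal leucine-rich repeat membrane protein, followed (chr1:204586812-204589315). It scored 259, 216, 236 and 446 in the MNA lines and 169, 241, 237 and 210 in the *MYCN* single copy lines, in the same order, which is kept for every region named here. LAN-2 was highest and CLB-GA lowest. The others were *HECW1*, a ubiquitin ligase of neurons (lowest rank 98.4%), *GRM3*, a metabotropic glutamate receptor (96.2%), and *FZD1*, a Wnt receptor encoded by a single exon (95.7%).

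In protein-coding promoter windows the leading gene was *MYORG*, which encodes a glycosidase (chr9:34370503-34372946). The scores were 341, 287, 256 and 329 in the MNA lines and 222, 151, 219 and 256 in the *MYCN* single copy lines. The groups touched at 256 and SH-SY5Y was lowest. *KCNV2*, a modulatory potassium channel subunit of photoreceptors, came next (chr9:2717470-2719353), with 221, 256, 224 and 194 in the MNA lines and 202, 259, 143 and 254 in the *MYCN* single copy lines. SK-N-AS was lowest. *STXBP2*, which acts in granule secretion, *UBE2QL1*, a ubiquitin-conjugating enzyme-like gene, and *SPSB4*, an adaptor of ubiquitin ligases, completed the 5. Their lowest ranks were 98.2%, 96.8% and 96.7%. The central 500 bp held 10.8 CpG per 100 bp at *MYORG*, 10.6 at *KCNV2* and 11.6 at *SPSB4*. It held only 3.4 at *STXBP2*, with a 12 bp period at 67.4% identity, and 0.8 at *UBE2QL1*. The windows also take in coding sequence, and methylation of the promoters themselves was not tested.

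Shared regions sat downstream of starts more than upstream. Of the 2355, 126 (5.35%) had their centre within 250 bp of a protein-coding TSS, 420 (17.8%) lay from 250 to 5000 bp downstream and 226 (9.6%) the same distance upstream. Over all merged regions those shares were 2.32%, 10.8% and 10.2%. Regions of exactly 7 lines leaned downstream too. From 250 to 500 bp downstream lay 2.15% of them and 2.25% of shared regions, and the same distance upstream 1.3% and 0.849%. Further downstream, from 1250 to 1500 bp, the shares were 0.85% and 1.36%.

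Among the strongest intronic regions was one in *PLEKHA8*, a lipid transfer protein of the Golgi (chr7:30154732-30156068). It scored 194, 502, 175 and 628 in the MNA lines and 287, 219, 294 and 673 in the *MYCN* single copy lines. That spread was wide within both groups. *CACNA2D4* and *CACNA1B*, calcium channel subunits, and *GUCY2D*, the guanylate cyclase of photoreceptors, had lowest ranks of 97.2%, 97.7% and 97.6%.

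Among regions with over 95% unique windows, the strongest outside genes, chr17:72509999-72511848, scored 369, 406, 411 and 315 in the MNA lines and 244, 439, 372 and 285 in the *MYCN* single copy lines. Its central 500 bp held 0.4 CpG per 100 bp in the reference and 32.8 TpG or CpA per 100 bp, while the whole region held 1.03 CpG per 100 bp. The median over shared regions was 16 TpG or CpA per 100 bp. The other leading one on the same chromosome, chr17:54820754-54821686, was a CpG-bearing tandem repeat with a unit of 28 bp (69.1% identity between neighbouring units). It scored 378, 231, 328 and 242 in the MNA lines and 280, 328, 399 and 326 in the *MYCN* single copy lines. Neither region separated the groups. The remaining 3 of the leading intergenic regions lay at chr13:112628603-112630273, chr17:75714105-75715298 and chr17:56194669-56195192, with lowest ranks of 96.6%, 93.1% and 96.8%.

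**Figure D3:**
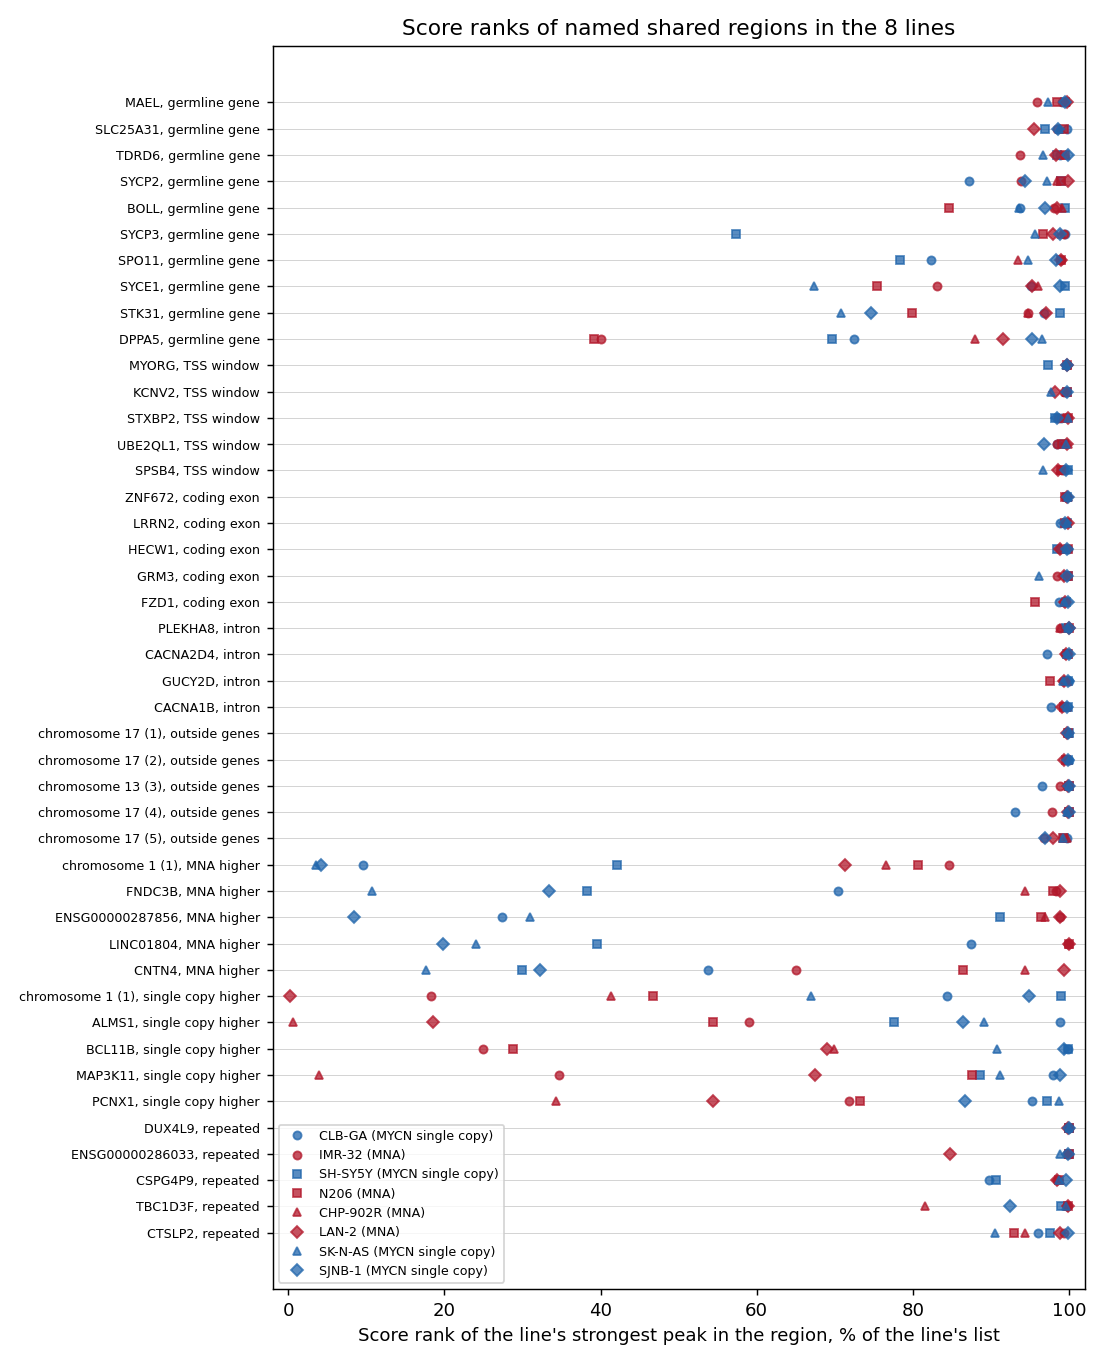
Score rank of the strongest peak in the region (x axis, % of the line's list) for named shared regions (rows), each point 1 line, red for MNA and blue for *MYCN* single copy. The regions drawn as leading their annotation class sit above 93% in every line, while the regions named for separating the *MYCN* groups spread from 0.204 to 100%.

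Strength and CpG content were only loosely tied. The 219 shared regions with a mean rank of at least 95% had a median of 5.2 CpG per 100 bp, and the 624 with a mean rank under 70% had 4.2. Of those 219, 35 (16%) had at least 10 CpG per 100 bp, against 2.4% of the weakest set. Yet 10 of them lay below the autosomal mean of 0.997 CpG per 100 bp, with 18.6 to 36 TpG or CpA per 100 bp. Over their whole length these 10 held 0.59 to 3.7 CpG per 100 bp. Counted anew over whole regions, 7 of all 219 were below that mean. Whether the lines carry more CpG there than the reference was not tested.

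Short tandem repeats were more common among shared regions. The central window was periodic at 70% identity or more, with a unit of 10 to 120 bp, in 43 of the 2355 (1.83%), against 1.15% of regions of exactly 7 lines and 0.206% of all merged regions. CACGTG is a hexamer with a CpG at its centre that reads the same on both strands. At least 3 copies of it stood in 75 shared regions (3.18%), against 0.181% of all merged regions, and the share rose from 0.0666% at 1 line through 1.8% at 7 lines. Those 75 windows had a median of only 2.8 CpG per 100 bp, and 64 were in introns or outside genes. The most, 16 copies, was in a 17 bp repeat at *LINC00683* (chr18:74298662-74299900). All 16 hexamers of the form NNCGNN that read the same on both strands were searched, overlapping copies included. GCCGGC stood 3 or more times in 4.33% of shared regions against 0.211% of all, and TGCGCA in 0.51% against 0.0229%, so CACGTG was not alone in this. TACGTA stood 3 or more times in 0.51% against 0.0631%. AACGTT and ATCGAT stood 3 or more times in 0 shared regions, against 0.00193% and 0.00331% of all merged regions. The other hexamers with 0 shared regions were no more common over all merged regions. At shares this low, 0 shared regions cannot be read as a lack. These are letter matches in the reference and describe no binding.

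Processed pseudogenes, the retrocopies of messenger RNAs, held the centre of 153 shared regions (6.5%), against 4.25% of regions of exactly 7 lines, 0.979% of all merged regions and 0.708% of regions of 1 line. Keratin copies (*KRT8*, *KRT18* and *KRT19* pseudogenes) made up 12 of them. Their share of all processed pseudogenes was not counted, so that number cannot be read as many or few. Chosen after their values were seen, *NEFHP1*, a copy of the neurofilament heavy chain gene, was the strongest with a name (chr1:117283925-117285427). It scored 318, 328, 272 and 476 in the MNA lines and 165, 315, 198 and 251 in the *MYCN* single copy lines, and the groups overlapped. *KRT8P48* and *ACTBP11*, a beta-actin copy, followed with mean ranks of 98.5% and 97.9%.

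Parts of the set could not be placed uniquely. Over the whole region, 73 shared regions (3.1%) had under 50% unique 45 bp windows, and peaks there may gather reads from several copies. The highest mean rank among them was that of *DUX4L9*, a copy of the DUX4 repeat gene near the end of chromosome 4 (chr4:190942644-190944265, 7.1% unique). It scored 3100, 3215, 2352 and 510 in the MNA lines and 3149, 3100, 1247 and 3100 in the *MYCN* single copy lines. *MIR3648* and *MIR3687*, miRNA genes annotated within ribosomal RNA-like sequence, shared a region (chr21:9825332-9827675, 23.9% unique) that scored 3100, 2087, 3100 and 252 in the MNA lines and 3088, 2452, 1841 and 3100 in the *MYCN* single copy lines. LAN-2 was lowest in both. It was lowest again, with 112 against 166 to 577 in the other lines, at an unnamed gene copy on chromosome 21 (chr21:9695351-9696530). *CSPG4P9*, *TBC1D3F* with *TBC1D3K*, and *CTSLP2* were the other leading regions with under 10% unique windows, with mean ranks of 96.7%, 96.5% and 96.2%. Among 2841 annotated autosomal miRNA genes, 11 (0.387%) had a shared region in the window around their start. Of these, 5 had only clone-based names. Besides *MIR3648* and *MIR3687* the others were *MIR1224*, *MIR1915*, *MIR4468* and *MIR4530*, with mean ranks of 79.7%, 75.1%, 65.8% and 88.7%.

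A shared region overlapped the TSS window of 584 of 19229 protein-coding genes (3.04%) and lay between start and end of 1417 (7.37%). Overlap at any base of the region counted, here and in the gene groups below. Counts for gene groups were read beside these shares, with no test. The clustered protocadherins, neuronal adhesion molecules whose variable exons each have their own promoter, stood highest. Of 53 *PCDHA*, *PCDHB* and *PCDHG* genes, 22 (41.5%) had a shared region in the TSS window, 22 regions in all. The 1 Mb window around them on chromosome 5 held 30 shared regions of 170 merged ones (17.6%), and the next densest windows held 9. The regions fell on 14 *PCDHA*, 4 *PCDHB* and 4 *PCDHG* windows. *PCDHA2* was the strongest (chr5:140174785-140177065), with scores of 228 in IMR-32, 188 in CHP-902R and 200 in LAN-2, a rank of 99.4% in N206, and scores of 205, 161, 177 and 316 in the *MYCN* single copy lines. SJNB-1 was highest, SH-SY5Y was lowest, and the groups overlapped. The ranks of *PCDHA12*, *PCDHA4*, *PCDHA8* and *PCDHA7* were at least 95.7% in every line. In these regions and that of *PCDHA2* the centre base lay in a coding exon outside the protein-coding TSS windows. *PCDHA* genes share 3′ exons, so the 10 genes with the most shared regions in their bodies, from *PCDHA1* with 15 to *PCDHA10* with 6, count the same regions again. The paralogs are near-copies, and 67.9 to 92.5% of the 45 bp windows of these 5 regions were unique.

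**Figure D4:**
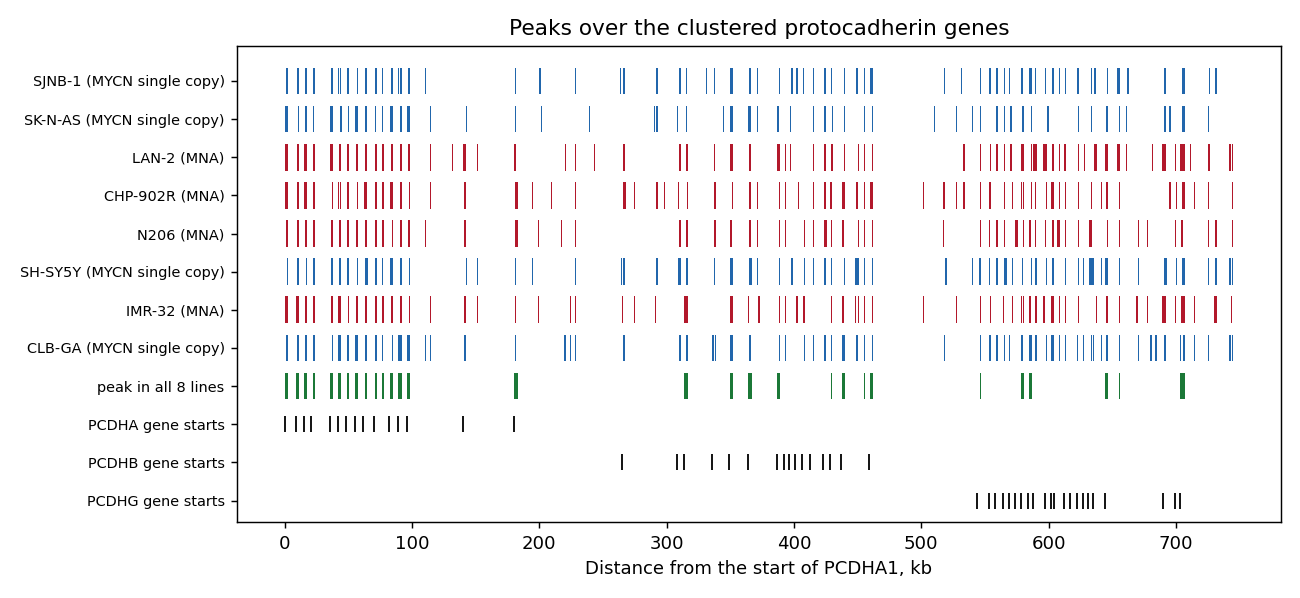
Peaks of each line (bars, red for MNA and blue for *MYCN* single copy), regions with a peak in all 8 lines (green) and the starts of protocadherin genes (black ticks), against the distance from the start of *PCDHA1* in kb (x axis). The variable *PCDHA* exons at the left carry a shared region at nearly every start, and the *PCDHB* and *PCDHG* parts carry fewer.

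Germline genes, which act in meiosis and in the piRNA pathway that silences transposons, had a shared region in the TSS window for 12 of 47 (25.5%). *MAEL*, of the piRNA pathway, was the strongest (chr1:166958122-166959264). It scored 140, 166, 224 and 304 in the MNA lines and 177, 207, 137 and 208 in the *MYCN* single copy lines, with LAN-2 highest and the groups overlapping. *SLC25A31*, the ADP/ATP carrier of sperm, and *TDRD6*, a Tudor protein of germ granules, were at or above ranks of 95.5% and 93.7% in every line. The synaptonemal complex genes *SYCP2*, *SYCP3* and *SYCE1* had mean ranks of 96.1%, 93% and 88.8%, *BOLL*, an RNA-binding protein of meiosis, 95.5%, *SPO11*, which makes meiotic DNA breaks, 93%, *STK31* 88.4% and *DPPA5* 74.1%. *PIWIL2* and *SMC1B*, a cohesin of meiosis, were the remaining 2, at 50.5% and 62%.

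Of 41 protein-coding genes from the imprinted list, in which 1 parental allele is methylated in normal tissue, 4 (9.76%) had a shared region in the TSS window, and of 7 noncoding imprinted genes 0 did. *FAM50B*, an imprinted retrogene (chr6:3848696-3851238), and *PEG10*, an imprinted retrotransposon-derived gene (chr7:94292670-94295277), had mean ranks of 96.9% and 92.5%. *GRB10*, an adaptor of growth factor receptors (chr7:50848961-50851245), scored 63.1, 140, 71.1 and 60.3 in the MNA lines and 124, 150, 87.1 and 99.1 in the *MYCN* single copy lines. N206 overlapped the single copy lines there, and no base was covered in all 8. *ZFAT* was the fourth, at a mean rank of 57.3%. *RB1*, the retinoblastoma tumor suppressor, carried 2 shared regions in its body, chr13:48890747-48895328 and chr13:49030494-49032466, with mean ranks of 71.8% and 72%.

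Of 557 zinc finger genes 15 (2.69%) had a shared region in the TSS window and 54 (9.69%) in the body, led by *ZSCAN18* (mean rank 92.9%), *ZNF524* (89.7%) and *ZFP36* (88.7%). Of 77 forkhead, SOX and PAX genes, developmental transcription factors, 2 (2.6%) did, *SOX30* (92.1%) and *FOXN4* (86.2%). *HOX* genes, which pattern the body axis, had 0 of 39 in the TSS window and 2 in the body, *HOXD3* and *HOXC4*. Olfactory receptors had 2 of 398 (0.503%), *OR13J1* and *OR2AT4*. Of 31 genes named as methylation markers in NB, a list drawn partly from this study, 2 (6.45%) did. These were *GRB10* and *PRPH*, the peripherin intermediate filament of peripheral neurons. *PRPH* (chr12:49688699-49691650) scored 124, 200, 159 and 177 in the MNA lines and 174, 120, 230 and 115 in the *MYCN* single copy lines, so the groups overlapped. Of 21 adrenergic and catecholamine genes, which set the identity of NB cells, 0 had one in the TSS window, and *ALK*, a receptor kinase mutated in NB, had 2 in its body (mean ranks 74.6% and 90%). Housekeeping genes had 0 of 27 in either.

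Shared regions were unevenly spread over the chromosomes. The long arm of chromosome 1 held 261, or 2.49 per sequenced Mb, and 17q held 139, also 2.49 per Mb, against 0.878 over all arms. Their short arms held 0.714 (1p) and 0.589 (17p). Arm 19p followed with 1.72 per Mb and 7p with 1.64, and 6q was lowest with 0.313. Counted per 10000 CpG, the arms 1q, 17q and 7p held 2.65, 1.73 and 1.58 shared regions, 19p held 0.807, 1p 0.661 and 17p 0.369. Gains of 1q, 17q and chromosome 7 and losses of 1p are among the usual chromosome changes of NB, and copy number was not measured in these lists. The number of merged regions per Mb with a peak in a line moved with the arms. It was higher on 1q than on 1p in 8 of 8 lines, from 30.3 against 29.4 in CLB-GA to 54.5 against 17.8 in CHP-902R. It was also higher on 17q than on 17p in 8 of 8 lines, from 63.1 against 45.2 in CLB-GA to 55.7 against 19.2 in SK-N-AS. Its part in the density of shared regions was not tested. Among the genes outside the protocadherins with the most shared regions in their bodies were *DLGAP2*, a postsynaptic scaffold at one end of chromosome 8, with 6, and *MYT1L*, *CACNA1C*, *MSI2*, *TANC2* and *CDH4* with 4 each. These were picked after their values were seen.

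**Figure D5:**
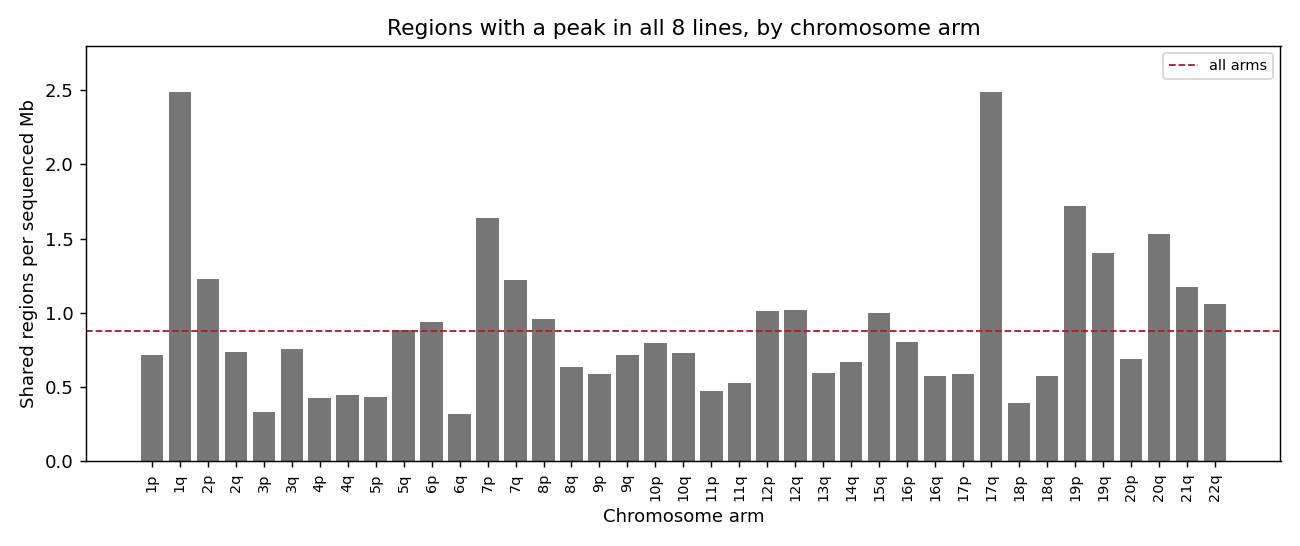
Shared regions per sequenced Mb (y axis) on each autosomal arm (x axis), with the value over all arms, 0.878, as a dashed line. Arms 1q and 17q stand out with 2.49 each.

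The *MYCN* groups hardly split on the strength of shared peaks. The strongest-peak ranks of the 4 MNA lines all exceeded those of the 4 *MYCN* single copy lines in 36 shared regions (1.53%), and the reverse held in 16 (0.679%). Among the 43483 merged regions with a peak in at least 4 lines the shares were 2.00% and 0.853%. Among the 4000 regions of exactly 7 lines they were 1.52% and 1.02%. The shares in shared regions were near these in both directions, but the measures are not fully alike. In the background regions a line without a peak took the lowest rank, so groups could split by presence alone. Shared regions have a peak in every line, so there they could split by strength only. Rank correlations between lines over the 2355 regions ran from 0.116 (CLB-GA with SK-N-AS) to 0.375 (SH-SY5Y with N206), with a mean of 0.279 within and 0.29 between *MYCN* groups.

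The largest splits are given as descriptions. On the MNA side was the widest shared region, 11943 bp over *LINC01804* (chr2:15828741-15840683), 240 kb from *MYCN*. It scored 705, 548, 561 and 770 in the MNA lines and 109, 66.9, 57 and 55.5 in the *MYCN* single copy lines. Within 500 kb of *MYCN*, the median peak score was 133 to 159 in the MNA lines and 64.7 to 79.5 in the *MYCN* single copy lines, while over all autosomes it was 65.7 to 75.5. Extra copies of the locus and methylation of it cannot be told apart from these scores. An intergenic region (chr1:166312318-166312986), *FNDC3B*, an unnamed gene (chr1:231589238-231590466) and *CNTN4*, a neuronal adhesion molecule, were the others on that side, with mean ranks 63.4, 59.2, 58.3 and 52.9 percentage points higher in MNA. On the *MYCN* single copy side, *BCL11B*, a zinc finger transcription factor (chr14:99640207-99643080), scored 59.8, 59.6, 83.8 and 90.7 in the MNA lines and 243, 312, 106 and 195 in the *MYCN* single copy lines. An intergenic region (chr1:220537470-220538328), *ALMS1*, a centrosome protein, *MAP3K11*, a stress kinase, and *PCNX1* were the other 4. Their differences, MNA minus single copy, were -59.7, -54.9, -45.7 and -36.1 percentage points. No base was covered in every line at *LINC01804*, *FNDC3B*, *ALMS1*, *BCL11B* or *PCNX1*. Scores there can come from different places in the merged region. The other splits named here had such a base.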

How the data were processed

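The authors mapped paired-end 45 bp reads of MBD-captured DNA to GRCh37 with Bowtie 0.12.7, called peaks in each line with MACS and deposited, per line, peak positions with the peak caller's score. Options, an input control and read counts per peak were not given in the sources used here. Scores depend on depth, and rank within a list removes its length but not its sensitivity. The score of a merged region in a line is that of its strongest peak there. Merging, ranks, CpG counts and exact permutation tests ran in Python 3.11.15 with numpy 2.4.6, and the merging was tested on simulated lists. Annotation was GENCODE 44 on GRCh37. The centre of a region is the middle of the longest stretch covered by the most lines. Samples were grouped by the *MYCN* status in the labels, and lines serve as replicates, so p-values measure the spread between these lines. The members and gene lists were chosen with earlier results of these data known. Genes and regions were named by fixed rules: in each annotation class the 5 of highest mean rank with over 95% unique windows, the 10 genes and 5 windows of 1 Mb with most regions, up to 10 genes per list by mean rank, the 5 largest *MYCN* splits in each direction, the 5 widest common stretches and the 5 of highest mean rank with under 10% unique windows. Of the widest, *FBXW5* and the region near *RTP5* had mean ranks of 85.6% and 70.9%. Some items these rules name are not reported here. Only autosomes were used. Alternatives were a score of at least 100, equally long lists, merging within 500 bp, a cover of 50%, other windows and each line left out.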

Additional observations from a re-analysis of the deposited data

Results flagged for a closer look

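Among 11 summary values per line, each examined in the MNA and the *MYCN* single copy lines (22 groups), 1 stood apart by Dixon's ratio, and chance gives about 1 in 20. The median CpG content around the strongest peaks in shared regions was 4.4 CpG per 100 bp in LAN-2 and 4.2 in the other 3 MNA lines, a ratio of 1. The value moves in steps, and the single copy lines held both values.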

How the results depend on the processing

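The number of shared regions was 2355. It fell to 209 with scores of at least 100 and to 528 where peaks had to cover 50% of the region. It was 1617 with equally long lists, 1879 with a base covered in every line and 2738 with merging within 500 bp, and 2693 to 2982 with 1 line left out. The share of regions with a peak in the named line was higher at 7 than at 1 other line under all alternatives run, by 51.2 to 76 points. The difference was 65.9 with a peak over the centre base, an alternative added after seeing the data. As in the main setting, these differences are descriptions. The difference between *MYCN* groups reversed to -0.707 with equally long lists. Leaving out 1 line gave 1.72 to 4.56 points, the largest without SH-SY5Y. The share with a TSS window, 38.3%, was 22.7% for protein-coding genes, 36.2% with the window ending at +500 bp, 29.5% by the centre base, 36.4% with scores of at least 100 and 35.6 to 38.4% with 1 line left out. The median CpG content, 4.6 per 100 bp, was 3.52 over the whole region, 5 in 200 bp, 4.2 in unique regions, 4.8 with scores of at least 100 and 4 to 4.6 with 1 line left out. Regions whose ranks separated the *MYCN* groups, 52 in all, numbered 97 to 126 with 1 line left out, where fewer lines have to be apart. They were 50 with ranks among shared regions only, 29 higher in MNA and 21 in single copy, and 70 with covered bp in place of the score, 55 and 15, where the score ranks gave 36 and 16. No paired analysis was possible because the replicate numbers only follow the order of the samples. The lists give no depth per line, so a region missing in 1 line may lie below that line's detection.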
